A study of Mus musculus with 16 samples.

Results

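The 10 genes described here encode the enzymes that build fatty acids in the cytosol and the proteins that switch those enzymes on. They are Acly, Acaca, Fasn, Elovl6, Scd1, Scd2, Scd4, Srebf1, Mlxipl and Thrsp. They were taken by symbol from the 55492 gene rows measured by RNA sequencing of mouse left ventricle, and all 10 were found. All 10 also passed a filter on low values, a mean of at least 10 normalized counts over the libraries, together with 20576 genes in all. The study compared PKM2fl/fl mice, in which exon 10 of Pkm is flanked by loxP sites and no Cre is present, with PKM2-/- mice, in which that exon had been removed in every cell by CMV-Cre and the Cre then bred out. All animals were C57BL/6 males aged 8 to 12 weeks. Each genotype gave 2 libraries from hearts without surgery (baseline), 3 libraries 3 days after a sham operation, and 3 libraries 3 days after myocardial infarction (MI) by permanent ligation of the left anterior descending artery, 16 libraries in 6 groups. Because the deletion is global, a difference between genotypes cannot be assigned to heart muscle, and because whole tissue was sequenced, fewer cells of a type and less RNA per cell cannot be told apart.

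Fatty acid synthesis starts from citrate exported by mitochondria. ATP citrate lyase (Acly) splits it into acetyl-CoA, acetyl-CoA carboxylase alpha (Acaca) makes malonyl-CoA, and fatty acid synthase (Fasn) joins these units into palmitate. The elongase ELOVL6 lengthens palmitate, and the stearoyl-CoA desaturases (Scd1, Scd2 and Scd4) place a double bond in the product. SREBP-1, from Srebf1, and ChREBP, from Mlxipl, are the transcription factors best known for switching these enzymes on in liver and fat, the latter in response to glucose. Thrsp encodes Spot 14, a small protein that follows the same controls. The adult heart oxidizes far more fatty acid than it makes. There, malonyl-CoA is best known as the inhibitor of fatty acid entry into mitochondria, and it is made mainly by the carboxylase isoform ACACB. Scd4 is the desaturase gene known for its expression in heart.

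The libraries held between 20623769 and 71855101 reads on genes, and the 10 genes had at least 21 reads in every library, with a median of 530. Values are normalized counts, that is, reads per gene after division by the size factor that DESeq2 gave each library. The gene total of Pkm sums PKM1 and PKM2 and so does not test the deletion of exon 10. It was 9602 and 9108 normalized counts in PKM2fl/fl against 11981 and 12984 in PKM2-/- hearts at baseline, 7779 to 9444 against 11710 to 14242 after sham, and 9576 to 12076 against 10120 to 16113 after MI. The sum of 6 cardiomyocyte markers ran from 597028 to 766244 normalized counts in the 10 baseline and sham libraries. After MI that sum was 273864, 270289 and 108309 in PKM2fl/fl hearts and 169226, 122345 and 120993 in PKM2-/- hearts, so the third PKM2fl/fl MI library stood apart from the other two. Results that turn on it are given with and without it, and leaving it out changed no call of MI against sham for the 10 genes. Reads on ribosomal RNA loci took between 15.8% and 46.1% of a library, and scaling to the library total in place of the size factors moved the median log2 fold change of all genes by -0.59 to 0.68 depending on the comparison. Directions below are therefore relative to the median gene.

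Acly had 975.7 and 846.6 normalized counts in PKM2fl/fl and 855.5 and 857.6 in PKM2-/- hearts at baseline. Acaca had 561.2 and 693.3, then 728.4 and 590.1, so that both genes overlapped between genotypes. Fasn had 757.5 and 663.4, then 575.8 and 645.1, so its PKM2-/- values lay below both PKM2fl/fl values. Groups did not overlap, in 1 direction or the other, for 34.9% of all genes at baseline. The Fasn difference was not called (log2 -0.22 ± 0.15 (SE), unadjusted p 0.18 in limma). To compare genes with each other, counts were divided by kilobases of annotated exon, with the exons of all annotated transcripts merged. That length need not be the length of the transcript present, so the order of genes is approximate. On this scale Thrsp was the most abundant of the 10 in both genotypes at baseline. It stood at 167.2 ± 0.53 (SD, n = 2) normalized counts per kilobase in PKM2fl/fl and 177.1 ± 39.7 in PKM2-/- hearts. Srebf1 came second in each of the 6 groups. Elovl6 was the least abundant in the 4 groups without MI, at 10.5 ± 0.43 in PKM2fl/fl and 6.56 ± 1.7 in PKM2-/- baseline hearts. After MI the order was different. Scd2 was then the most abundant, at 203.9 ± 39.3 (SD, n = 3) in PKM2fl/fl and 233.5 ± 10.9 in PKM2-/- hearts, while Thrsp was seventh of 10 in both, Scd4 was the least abundant in PKM2fl/fl and Mlxipl in PKM2-/- hearts. Genes near each other in this order often overlapped, as Acly and Fasn did in every group except PKM2-/- baseline, where both libraries had more Acly than Fasn per kilobase.

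**Figure D1:**
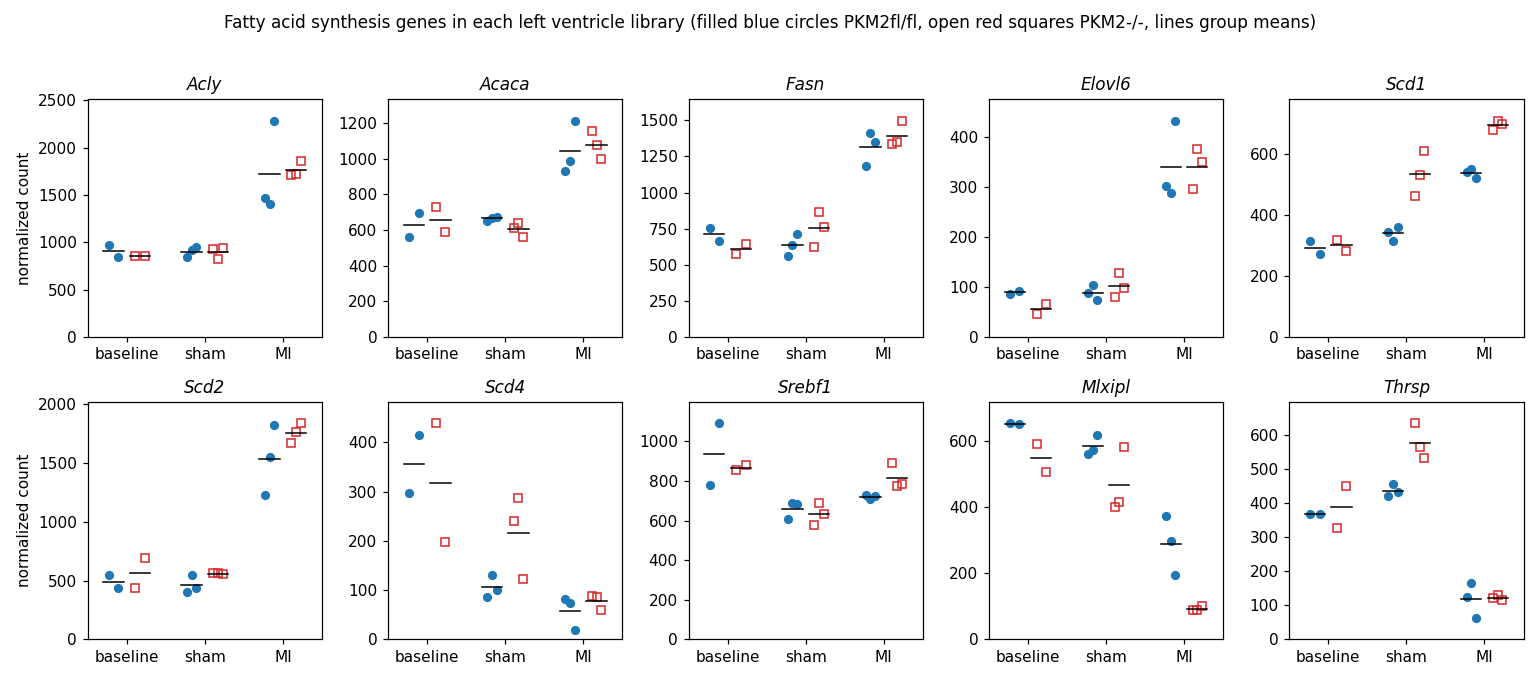
Normalized count (vertical axis, linear, from 0) of each of the 10 genes in every library, by treatment. Filled blue circles are PKM2fl/fl, open red squares PKM2-/-, and short lines group means; 7 genes stand higher and 3 lower after MI in both genotypes with no overlap with sham, and Mlxipl is the gene with the largest fold between the MI groups of the 2 genotypes, at 2.99.

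The comparison of MI with sham asked what the infarct did to this pathway within each genotype. Genes of chain building, elongation and desaturation rose, apart from Scd4, while the regulators Mlxipl and Thrsp fell. In PKM2fl/fl hearts, 8 of the 10 genes were called at a Benjamini-Hochberg adjusted p under 0.05 in limma, 6 higher and 2 lower after MI. In PKM2-/- hearts, all 10 were called, 7 higher and 3 lower. MI changed a large part of the transcriptome, and 50.1% of all genes tested were called in PKM2fl/fl and 56.8% in PKM2-/- hearts, so these counts are to be read against that background. Of all genes, 24.8% were called higher and 25.3% lower in PKM2fl/fl, and 28.7% higher and 28.1% lower in PKM2-/- hearts. Higher genes were thus 49.5% and 50.5% of the calls, against 39.7% and 79.4% with libraries scaled to their totals and 60.9% and 72.2% with ribosomal RNA loci left out of the totals. Requiring a change of at least 2-fold as well left 5 of the 10 in each genotype, against 23.5% and 28.8% of all genes. The median log2 fold change over the 10 genes was 0.65 in PKM2fl/fl and 0.61 in PKM2-/- hearts, beside values within 0.011 of 0 over all genes. For all 10 genes the MI and sham libraries of a genotype did not overlap, as was true of 59% of all genes in PKM2fl/fl and 62.3% in PKM2-/- hearts.

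Acly, Acaca and Fasn all rose after MI. Acly had 844.2, 914.6 and 946.1 normalized counts in sham and 1471.6, 1409.2 and 2284.6 in MI hearts of PKM2fl/fl mice, a log2 fold change of 0.90 ± 0.14 (SE) with an adjusted p of 0.00011 in limma. The PKM2-/- hearts had 932.4, 824.1 and 939.6 in sham and 1712.9, 1721.8 and 1859.6 after MI, 0.97 ± 0.14. The highest value was that of the PKM2fl/fl library with the fewest cardiomyocyte transcripts, and without that library the log2 fold change of Acly in PKM2fl/fl hearts was 0.68. Acaca went from 652.1, 669.3 and 675.5 to 932.1, 990.2 and 1214.5 in PKM2fl/fl hearts, 0.64 ± 0.12 with an adjusted p of 0.00041. Among PKM2-/- hearts it went from 610.9, 638.6 and 562.0 to 1158.4, 1079.7 and 998.3, 0.84 ± 0.12 with an adjusted p of 2.9e-05. Fasn went from 562.8, 633.3 and 710.3 to 1187.2, 1410.2 and 1353.5 in PKM2fl/fl hearts, which is 2.07-fold higher. PKM2-/- hearts went from 625.4, 867.2 and 760.5 to 1336.0, 1348.3 and 1497.5, 1.87-fold higher, and the adjusted p of Fasn was 9.1e-06 and 2.3e-05 in the 2 genotypes. For all 3 genes the MI values of the genotypes overlapped. With libraries scaled to their totals, Acly (adjusted p 0.053) and Acaca (adjusted p 0.26) kept their direction in PKM2fl/fl hearts and were no longer called.

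The Fasn start site (RefSeq, GRCm38.p6, minus strand of chromosome 11) is shown because Fasn is the central enzyme of the pathway. The capitals mark CCAAT, the sequence bound by NF-Y, a partner of SREBP on many lipid genes, read on either strand. The window runs from 250 bases before to 50 after the start.

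Fasn, chr11:120824498-120824797: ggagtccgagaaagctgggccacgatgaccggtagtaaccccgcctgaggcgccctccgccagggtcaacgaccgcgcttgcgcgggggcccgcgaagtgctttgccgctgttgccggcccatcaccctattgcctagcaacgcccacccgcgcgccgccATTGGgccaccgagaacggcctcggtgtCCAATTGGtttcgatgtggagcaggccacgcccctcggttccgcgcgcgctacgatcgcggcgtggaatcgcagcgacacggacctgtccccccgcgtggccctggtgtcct

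This window holds 3 matches to CCAAT, at -90, -62 and -59 from the start, of which the last 2 overlap. CCAAT occurs in 37.4% of 32851 promoter windows of the same length, so a match by itself is common. Neither CACGTG, the E-box letters of the ChREBP element, nor TCACNCCAC, a sterol regulatory element, was found there on either strand. Of the windows of the other enzymes, that of Acly held 1 CCAAT and those of Acaca, Elovl6 and Scd4 held none of the 3 motifs. The Acaca window, chr11:84195188-84195487, lies inside the gene, which starts at chr11:84129635 on the plus strand. The sequence before that upstream end of Acaca was not searched. Of the 3 annotated Srebf1 starts, 2 had 1 CCAAT each. Windows were matched for 8 of the 10 genes.

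Elovl6 and Scd2 had the largest increases. Elovl6 had 88.1, 102.6 and 73.5 normalized counts in sham and 301.4, 287.2 and 431.7 in MI hearts of PKM2fl/fl mice, a 3.8-fold rise (log2 1.93 ± 0.21, adjusted p 5.0e-06 in limma). The PKM2-/- hearts had 80.4, 126.7 and 97.1 in sham and 295.1, 374.7 and 349.1 after MI, a 3.37-fold rise. Every MI heart was therefore more than 2 times above every sham heart. Scd2 went from 403.0, 547.1 and 439.2 to 1230.5, 1551.7 and 1821.8 in PKM2fl/fl hearts, 1.72 ± 0.17 on the log2 scale. Among PKM2-/- hearts it went from 561.1, 560.3 and 554.5 to 1673.2, 1762.4 and 1836.5, 1.65 ± 0.17, with adjusted p of 1.8e-06 and 1.6e-06 in the 2 genotypes. Scd1 rose less. It had 344.3, 315.1 and 360.8 in sham and 539.5, 550.8 and 519.5 in MI hearts of PKM2fl/fl mice, 0.66 ± 0.11 (adjusted p 0.00017), a call that was lost with libraries scaled to their totals (adjusted p 0.23). The rise in PKM2-/- hearts was from 463.0, 531.5 and 608.4 to 678.5, 708.1 and 696.8, 0.39 ± 0.11 (adjusted p 0.0078).

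Scd4 was the exception among the enzymes. It had 85.8, 131.4 and 99.5 normalized counts in sham and 81.9, 73.9 and 19.2 in MI hearts of PKM2fl/fl mice, -1.07 ± 0.46 on the log2 scale, which did not pass the test (adjusted p 0.068). The value of 19.2 came from the library with the fewest cardiomyocyte transcripts, and without that library the log2 difference was -0.41. Without MI replicate 1 or 2 of PKM2fl/fl the fall was called (adjusted p 0.027 and 0.037). Scd4 in PKM2-/- hearts went from 241.1, 286.0 and 121.9 to 87.6, 85.1 and 60.6 and was called lower, -1.39 ± 0.46 (adjusted p 0.018). That call was lost without sham replicate 1 (adjusted p 0.059), sham replicate 2 (0.077) or MI replicate 3 (0.066) of PKM2-/-, and under both scalings to library totals. The 3 desaturase genes lie side by side on chromosome 19 (GRCm38.p6), Scd2 at chr19:44293676-44306864 and Scd4 at chr19:44333326-44346743 on the plus strand and Scd1 at chr19:44394450-44407709 on the minus strand. They are close paralogs, and how reads that match several of them were counted is not given in the sources used here, so the division of reads among them is uncertain.

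**Figure D2:**
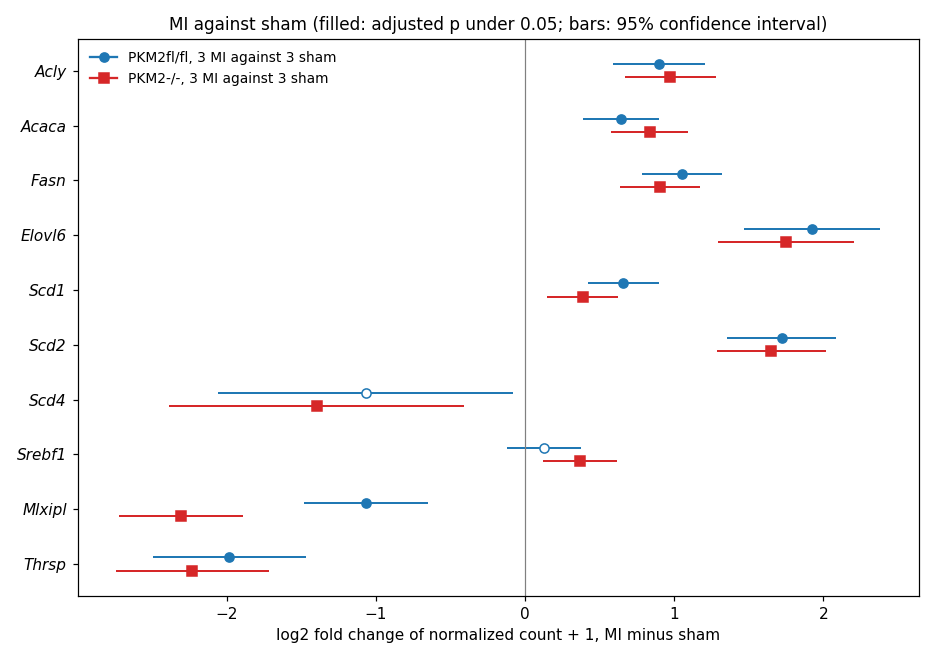
Log2 fold change of normalized count + 1, MI minus sham (horizontal axis), for the 10 genes in PKM2fl/fl (blue circles) and PKM2-/- hearts (red squares), with 95% confidence intervals from limma; filled symbols passed an adjusted p of 0.05. The 6 enzymes other than Scd4 lie right of 0, and Scd4, Mlxipl and Thrsp left of it in both genotypes, and the genotypes differ most for Mlxipl, at -1.07 and -2.30.

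Among the regulators, Srebf1 moved little. It had 608.6, 688.8 and 681.9 normalized counts in sham and 726.5, 707.3 and 724.3 in MI hearts of PKM2fl/fl mice, 0.13 ± 0.12 on the log2 scale (adjusted p 0.39), and the value was -0.050 with libraries scaled to their totals. PKM2-/- hearts went from 575.5, 688.2 and 634.3 to 889.3, 775.5 and 783.4, and Srebf1 was called higher, 0.37 ± 0.12 (adjusted p 0.014), a call lost without sham replicate 1 (adjusted p 0.065) or MI replicate 1 (0.060) of PKM2-/-. Thrsp fell 3.95-fold in PKM2fl/fl and 4.69-fold in PKM2-/- hearts. It had 420.6, 455.8 and 432.9 in sham and 123.7, 166.1 and 64.0 in MI hearts of PKM2fl/fl mice, -1.98 ± 0.24 (adjusted p 1.1e-05). Among PKM2-/- hearts it went from 633.4, 565.5 and 532.9 to 120.0, 129.6 and 116.9, -2.23 ± 0.24 (adjusted p 2.4e-06). Mlxipl fell from 562.2, 572.8 and 617.2 to 374.1, 296.8 and 193.9 in PKM2fl/fl hearts, 2.09-fold lower (log2 -1.07 ± 0.19, adjusted p 0.00033). The lowest Mlxipl and Thrsp values of PKM2fl/fl hearts were those of the library with the fewest cardiomyocyte transcripts, and without it the log2 fold changes in PKM2fl/fl hearts were -0.81 for Mlxipl and -1.60 for Thrsp. The PKM2-/- hearts went from 401.9, 416.6 and 582.5 to 88.4, 88.3 and 101.0, 4.94-fold lower (-2.30 ± 0.19, adjusted p 3.0e-07).

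The promoters of the 2 regulators that fell are shown for comparison with Fasn, again from RefSeq on GRCm38.p6 and with motif matches in capitals. Mlxipl has 2 annotated start sites on the plus strand of chromosome 5 that lie 17001 bases apart. As background, the upstream start gives the short ChREBP-beta form and the downstream start the longer ChREBP-alpha form. The deposited counts are per gene and do not separate them.

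Mlxipl upstream start, chr5:135089640-135089939: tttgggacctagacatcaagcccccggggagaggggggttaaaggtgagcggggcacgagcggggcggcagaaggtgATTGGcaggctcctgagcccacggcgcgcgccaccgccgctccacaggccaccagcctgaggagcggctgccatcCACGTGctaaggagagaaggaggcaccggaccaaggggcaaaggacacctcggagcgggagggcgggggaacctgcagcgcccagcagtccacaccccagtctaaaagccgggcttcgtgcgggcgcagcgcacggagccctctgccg

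Mlxipl downstream start, chr5:135106641-135106940: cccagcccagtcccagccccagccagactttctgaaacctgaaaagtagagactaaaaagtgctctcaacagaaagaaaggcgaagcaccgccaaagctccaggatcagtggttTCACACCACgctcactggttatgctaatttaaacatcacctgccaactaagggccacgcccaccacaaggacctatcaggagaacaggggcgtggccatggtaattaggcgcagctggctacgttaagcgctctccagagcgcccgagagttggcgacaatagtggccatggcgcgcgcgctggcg

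Thrsp, minus strand, chr7:97417501-97417800: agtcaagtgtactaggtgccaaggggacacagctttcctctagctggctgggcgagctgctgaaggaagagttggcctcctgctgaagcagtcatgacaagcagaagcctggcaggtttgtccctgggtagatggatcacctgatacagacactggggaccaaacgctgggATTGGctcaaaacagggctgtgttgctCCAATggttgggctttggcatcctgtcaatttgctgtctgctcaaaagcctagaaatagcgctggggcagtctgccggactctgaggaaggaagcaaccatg

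The upstream Mlxipl window was the one member window with a CACGTG, at -98, which 7.15% of all windows hold, and it also had a CCAAT at -173 on the opposite strand. The downstream Mlxipl window was the one with a TCACNCCAC, at -136, which 1.24% of all windows hold. The Thrsp window had 2 matches to CCAAT, at -79 and -52. Fasn, which rose, and Thrsp, which fell, thus both held several CCAAT matches. A match is a description of the letters and was not tested for binding.

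The falls of Mlxipl, Thrsp and Scd4 went with a fall of the cardiomyocyte markers (Myh6, which gives 52.8% of their sum, and 5 others). After MI the marker sum was 0.310 of sham in PKM2fl/fl and 0.205 of sham in PKM2-/- hearts, with no overlap (exact permutation p = 0.1 in each, the smallest that 3 against 3 allows). The summed level of the 7 leukocyte markers was 3.42-fold and 3.87-fold higher after MI, and that of the 5 fibroblast markers 4.64-fold and 4.496-fold. One member of each list stood out. Dcn, a fibroblast proteoglycan, was lower, from 8270 to 12625 normalized counts in sham against 6364 to 7840 after MI in PKM2fl/fl and from 8071 to 13364 against 6806 to 7426 in PKM2-/- hearts. The neutrophil gene S100a8 had means of 225.0 and 225.8 in sham and MI hearts of PKM2fl/fl mice. In PKM2-/- hearts it was higher after MI, with means of 228.5 in sham and 663.1 in MI hearts. Per 1000 normalized counts of cardiomyocyte markers, Thrsp was 0.624 ± 0.060 (SD, n = 3) in sham and 0.552 ± 0.088 in MI hearts of PKM2fl/fl mice. It was 0.871 ± 0.165 and 0.911 ± 0.181 in PKM2-/- hearts, so on this scale sham and MI overlapped in both genotypes. For Mlxipl the ratio in PKM2-/- hearts was 0.673, 0.560 and 0.867 in sham and 0.522, 0.722 and 0.835 after MI, again overlapping. In PKM2fl/fl hearts it was higher after MI, at 1.37, 1.098 and 1.79 against 0.831, 0.861 and 0.807 in sham (exact permutation p = 0.1). Scd4 was 0.151 ± 0.040 in sham and 0.250 ± 0.064 after MI in PKM2fl/fl, and 0.323 ± 0.123 and 0.571 ± 0.108 in PKM2-/- hearts. On this scale, unlike its counts, Scd4 was thus higher after MI in mean. The groups overlapped in PKM2fl/fl hearts (exact permutation p = 0.2). In PKM2-/- hearts they did not overlap, with MI 1.77 times sham (exact permutation p = 0.1). The part of the changed cell makeup in the changes of these genes was not tested.

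**Figure D3:**
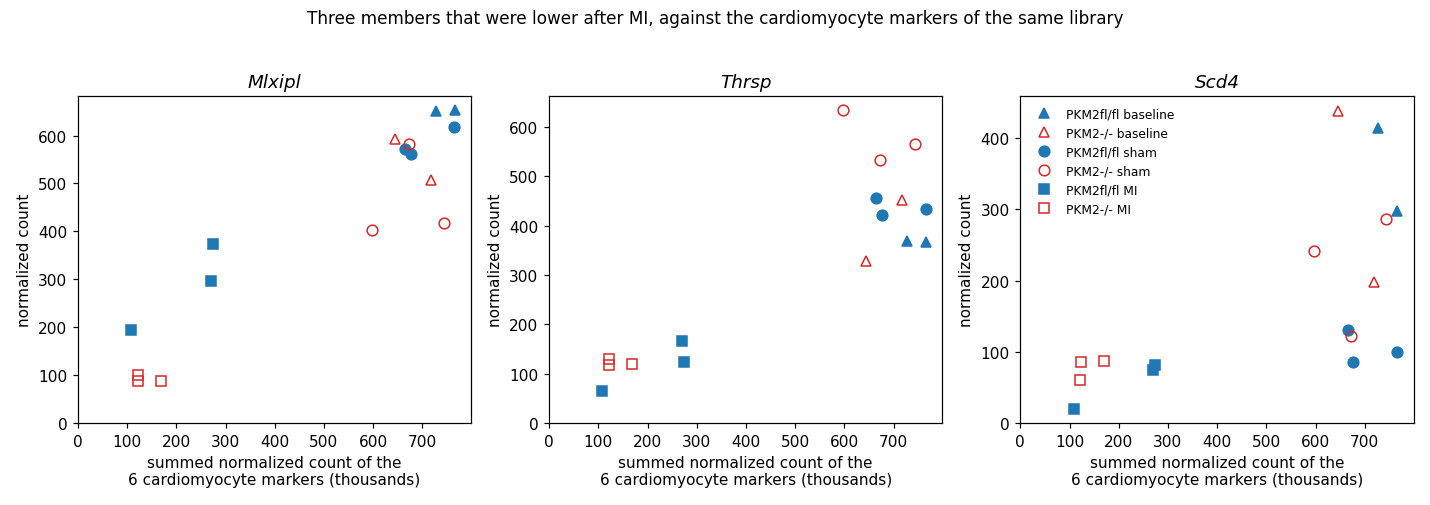
Normalized count of Mlxipl, Thrsp and Scd4 (vertical axes) against the summed normalized count of 6 cardiomyocyte markers in the same library divided by 1000 (horizontal axes), for all 16 libraries; triangles are baseline, circles sham and squares MI, filled blue for PKM2fl/fl and open red for PKM2-/-. The MI libraries lie at the left of each panel, and for Mlxipl the PKM2-/- MI libraries lie below the PKM2fl/fl MI library that has fewer cardiomyocyte transcripts.

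The genes around the pathway were taken from 5 further lists with 51 genes in all, of which 47 were tested. After MI, 13 were called higher and 20 lower in PKM2fl/fl and 14 higher and 21 lower in PKM2-/- hearts, beside 24.8% and 25.3% of all genes in PKM2fl/fl and 28.7% and 28.1% in PKM2-/- hearts. In the list that supplies acetyl-CoA, malonyl-CoA and NADPH, 3 of 8 rose and 4 fell in each genotype. Pgd and G6pdx, enzymes of the oxidative pentose phosphate pathway that yield NADPH, rose by log2 1.42 ± 0.12 and 1.35 ± 0.15 in PKM2fl/fl and by 1.74 ± 0.12 and 1.46 ± 0.15 in PKM2-/- hearts. Me1, also listed for NADPH, went the other way. Its mean went from 2267 normalized counts in sham to 1224 after MI in PKM2fl/fl and from 2098 to 1002 in PKM2-/- hearts. Idh1 overlapped between sham and MI, with means of 1128 and 1089 in PKM2fl/fl and 1115 and 975 in PKM2-/- hearts. Slc25a1, the mitochondrial citrate carrier, rose by 1.49 ± 0.18 in PKM2fl/fl hearts. In PKM2-/- hearts it rose as well, from a mean of 101.9 normalized counts in sham to 267.8 after MI. Mlycd, which degrades malonyl-CoA, fell, with -1.96 ± 0.24 in PKM2-/- hearts. In PKM2fl/fl hearts its mean went from 1612 normalized counts in sham to 517 after MI. Acacb, whose product makes most of the malonyl-CoA in heart, was also lower after MI. Its mean went from 9544 normalized counts in sham to 3040 after MI in PKM2fl/fl and from 9181 to 1645 in PKM2-/- hearts. Of the elongases, desaturases and elongation partners, 7 of 13 tested rose in each genotype, while 1 fell in PKM2fl/fl and 2 fell in PKM2-/- hearts. Fads2, the delta-6 desaturase, rose by 1.26 ± 0.13 and 1.20 ± 0.13, and Tecr, the last reductase of the elongation cycle, fell in PKM2-/- hearts by 2.03 on the log2 scale.

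In the list of SREBP, LXR and ChREBP control, 1 of 10 rose and 3 fell in PKM2fl/fl, and 3 rose and 3 fell in PKM2-/- hearts. Srebf2, the regulator of cholesterol synthesis and paralog of Srebf1, rose by 0.86 ± 0.12 in PKM2fl/fl and 0.68 ± 0.12 in PKM2-/- hearts. Mid1ip1, the paralog of Thrsp that activates acetyl-CoA carboxylase, fell as Thrsp did, -1.28 ± 0.22 and -1.11 ± 0.22. Of 11 genes of triglyceride assembly and droplets, 2 rose and 8 fell in PKM2fl/fl and 1 rose and 7 fell in PKM2-/- hearts. Dgat2, which makes triglyceride, was at -1.93 ± 0.25 and -2.28 ± 0.25, whereas Plin2, a droplet coat protein, rose by 1.66 ± 0.14 and 2.03 ± 0.14. The mitochondrial pathway of fatty acid synthesis, a separate route that makes the precursor of lipoate, had 4 of 5 tested genes called lower in PKM2fl/fl and 5 of 5 in PKM2-/- hearts and none higher. Its reductase subunit gene Cbr4 was at -1.09 ± 0.11 and -1.40 ± 0.11. These adjusted p values in limma were between 7.3e-08 and 0.00048.

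**Figure D4:**
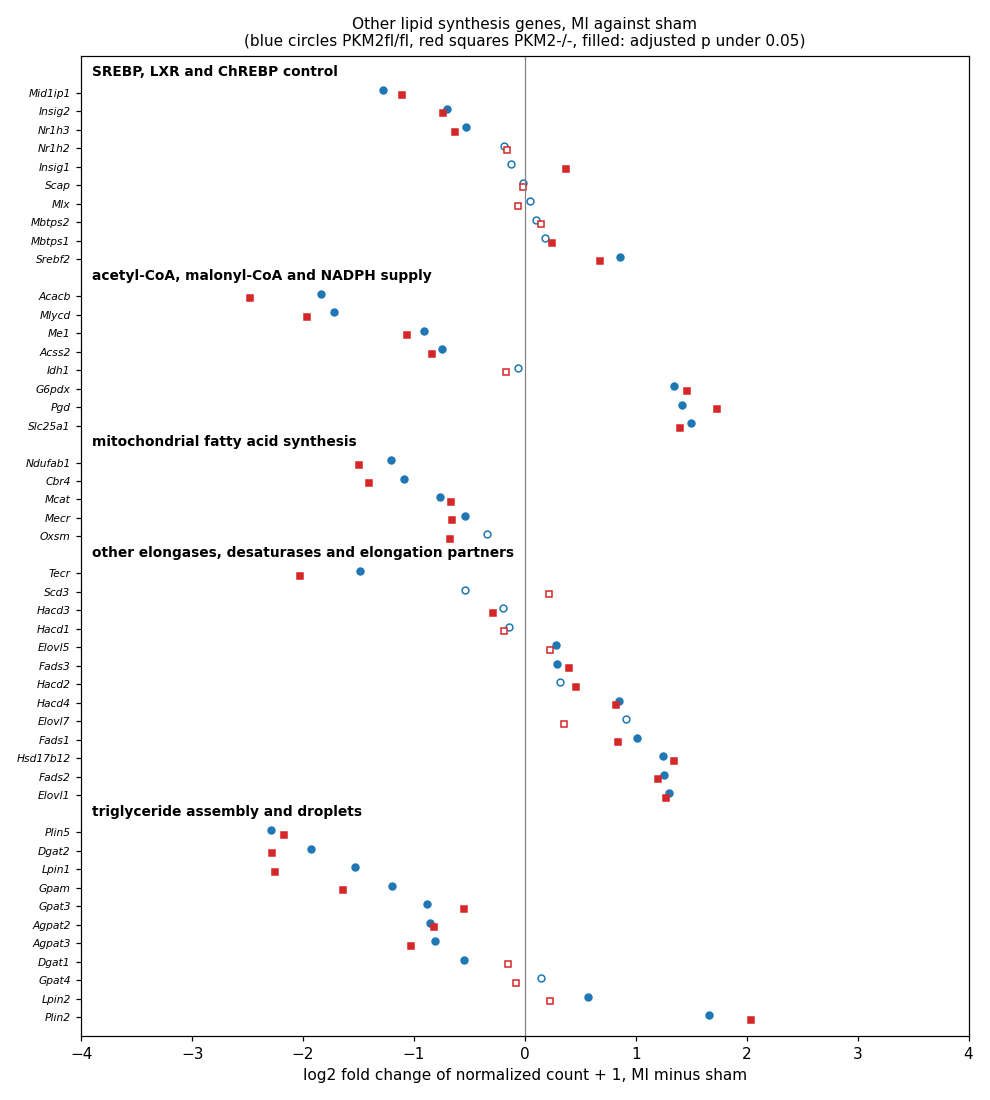
Log2 fold change of normalized count + 1, MI minus sham (horizontal axis), for the 47 tested genes of the 5 lists around fatty acid synthesis, in PKM2fl/fl (blue circles) and PKM2-/- hearts (red squares); filled symbols passed an adjusted p of 0.05 in limma. Pgd and G6pdx lie between 1.35 and 1.74, whereas Me1 of the same list and all mitochondrial fatty acid synthesis genes lie left of 0.

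The comparison of PKM2-/- with PKM2fl/fl hearts at a given treatment asked whether loss of PKM2 shifts the pathway. Mlxipl was lower in PKM2-/- than in PKM2fl/fl hearts after MI. It was the 1 of 10 genes called after MI, where 0.967% of all genes were called. Scd1 was higher in PKM2-/- hearts after sham and after MI, without overlap, and missed the threshold in limma. At baseline and at sham none of the 10 genes was called in limma or edgeR, as 0.00972% of all genes were in limma at each, while DESeq2 called 1, Scd1 at sham. An unadjusted p under 0.05 in limma was reached by 1 of 10 genes at baseline (3.64% of all genes), 1 at sham (9.95%) and 2 after MI (17%). The remaining genes had log2 differences of -0.25 to 0.17 at baseline, -0.34 to 0.96 at sham and 0.02 to 0.63 after MI.

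Mlxipl had 374.1, 296.8 and 193.9 normalized counts in PKM2fl/fl and 88.4, 88.3 and 101.0 in PKM2-/- hearts after MI. The highest PKM2-/- heart thus lay below the lowest PKM2fl/fl heart, a 2.99-fold difference (log2 -1.58 ± 0.19, adjusted p 0.0045 in limma). It was called in 24 of 25 alternative analyses, over which the log2 difference ran from -1.84 to -1.22. The exception used the 6 MI libraries alone (adjusted p 0.11). Leaving out the PKM2fl/fl library with the fewest cardiomyocyte transcripts, which had the lowest Mlxipl of its group, gave -1.84. The cardiomyocyte marker sum was 0.632 of PKM2fl/fl in PKM2-/- MI hearts, with overlap (exact permutation p = 0.4). Divided by that sum, Mlxipl was 0.489 of PKM2fl/fl in PKM2-/- hearts, still without overlap (exact permutation p = 0.1, the smallest possible). On plain counts, groups did not overlap for 18.9% of all genes after MI, and the share on the divided scale was not computed. At baseline Mlxipl had 653.8 and 651.5 against 592.1 and 507.6, and at sham 562.2, 572.8 and 617.2 against 401.9, 416.6 and 582.5, where the groups overlapped. Neither difference was called (adjusted p 1 and 0.61 in limma). Averaged over the 3 treatments it was -0.72 ± 0.12 (adjusted p 0.044), where 0.102% of all genes were called, but this was called in 3 of the 16 fits that each left out 1 library and in 10 of all 25 alternatives.

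The fall of Mlxipl after MI was therefore larger in PKM2-/- hearts in value, by log2 -1.24 ± 0.27. This difference of differences had an unadjusted p of 0.00041 and an adjusted p of 0.28 in limma. None of the 20576 genes passed that test in limma or edgeR, while 60 did in DESeq2, Mlxipl among them (log2 -1.32, adjusted p 0.0084). Without the third PKM2fl/fl MI library the limma value was -1.50 with an adjusted p of 0.0038, and 484 genes were called. With libraries scaled to their totals it was -0.55, with the median of all genes shifted by 0.68. The interaction call thus turned on that library and on the tool. Mlxipl was the one member with an unadjusted p under 0.05 for the interaction, as were 8.28% of all genes. For the other 9 genes the interaction ran from -0.33 for Scd4 to 0.24 for Srebf1, and its 95% interval was -0.53 to 0.23 for Fasn and -0.36 to 0.51 for Acly.

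Scd1 had 312.4 and 270.0 normalized counts in PKM2fl/fl and 317.0 and 282.2 in PKM2-/- hearts at baseline, which overlapped. After sham it had 344.3, 315.1 and 360.8 against 463.0, 531.5 and 608.4, 1.56-fold higher without overlap (log2 0.64 ± 0.11). The adjusted p was 0.058 in limma, 0.00015 in DESeq2 and 0.046 in limma without the third PKM2fl/fl MI library. After MI it had 539.5, 550.8 and 519.5 against 678.5, 708.1 and 696.8, 1.29-fold higher without overlap (0.37 ± 0.11, adjusted p 0.11 in limma and 0.036 in DESeq2). In the mean of the 3 treatments Scd1 differed by 0.35 ± 0.07 (adjusted p 0.072 in limma). Groups did not overlap for 16.5% of all genes at sham and 18.9% at MI. Scd1 is abundant in fat, so adipocyte markers are given beside it. Cfd had 9.99, 20.5 and 24.5 normalized counts in PKM2fl/fl and 53.1, 54.9 and 53.9 in PKM2-/- sham hearts, and Car3 had 16.4, 35.9 and 23.5 against 33.8, 66.6 and 47.5. Adipoq had at most 12.9 in any sham heart and overlapped between genotypes, Lep was at 0 in all 6, and the summed level of the 10 adipocyte markers, 72.3% of it Fabp4, was 7347 to 9908 in PKM2fl/fl and 8078 to 8698 in PKM2-/- sham hearts (exact permutation p = 0.9). In PKM2fl/fl sham hearts Fabp4, Pparg and Lipe had means of 6102, 1339 and 974, beside a mean sum of 8479. The sum therefore cannot show changes of low markers such as Cfd. Plin1, a droplet coat protein of fat cells, had 6.86 to 8.23 in PKM2fl/fl and 12.9 to 17.7 in PKM2-/- sham hearts, without overlap. The endothelial marker sum did not overlap either, at 12360 to 14749 against 15027 to 15877 (exact permutation p = 0.1). The part of fat or endothelial cells in the Scd1 difference was not tested. The share of reads on ribosomal RNA loci also did not overlap at sham, with means of 22.2% in PKM2fl/fl and 34.7% in PKM2-/- hearts, and its part was likewise not tested.

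Elovl6 had 86.3 and 91.6 normalized counts in PKM2fl/fl and 45.5 and 66.0 in PKM2-/- hearts at baseline, the lowest values of the gene in the series (log2 -0.69 ± 0.26, unadjusted p 0.019, adjusted p 1 in limma). It was the 1 member with an unadjusted p under 0.05 at baseline, as were 3.64% of all genes, and neither DESeq2 nor edgeR called it. Groups did not overlap for 34.9% of all genes there. The share of reads on ribosomal RNA loci did not overlap at baseline either, at 17.3% and 22.1% in PKM2fl/fl against 43.9% and 39.7% in PKM2-/- hearts. Atrial markers were 2.40-fold higher in PKM2-/- baseline hearts, also without overlap (exact permutation p = 0.33, the smallest that 2 against 2 allows), and the part of either in the Elovl6 difference was not tested. At sham and MI its groups overlapped. Acly, Acaca and Fasn differed between genotypes by -0.22 to 0.23 on the log2 scale over the 3 treatments. The 95% intervals for Fasn were -0.55 to 0.11 at baseline, -0.03 to 0.50 at sham and -0.18 to 0.35 after MI. Scd4 varied most among replicates. At baseline it had 297.5 and 414.7 against 438.2 and 197.9, and its 95% interval there ran from -1.46 to 0.96. None of the 47 surrounding genes was called for genotype at any treatment by limma, with an unadjusted p under 0.05 for 1 at baseline, 2 at sham and 9 after MI, beside 3.64%, 9.95% and 17% of all genes. DESeq2 called 0, 0 and 4 of them and edgeR 0, 0 and 0. Those with the smallest p after MI were Cbr4 (log2 -0.42 ± 0.11, adjusted p 0.087) and Gpam (-0.74 ± 0.21, adjusted p 0.093).

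**Figure D5:**
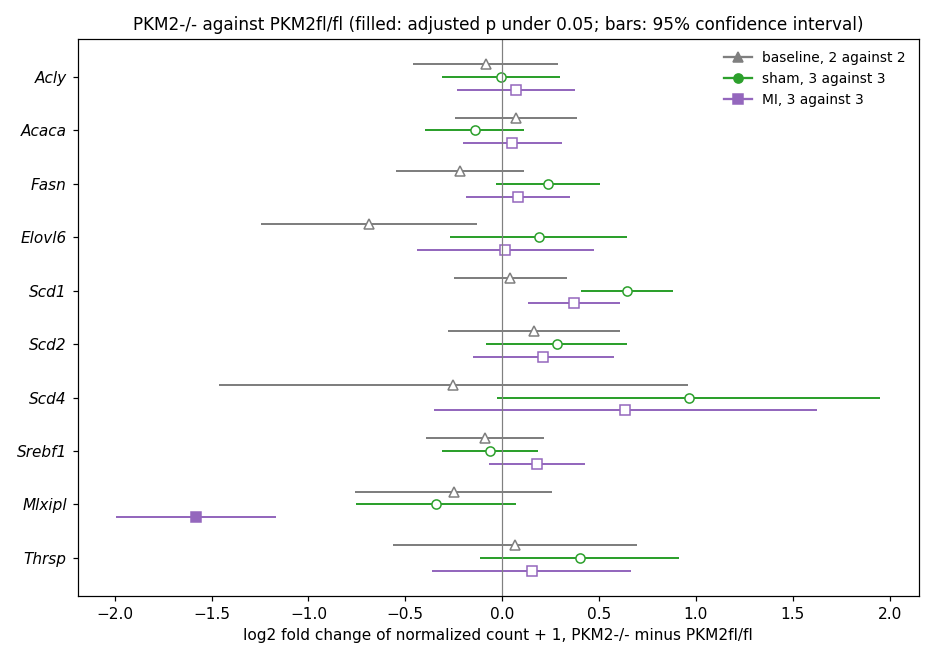
Log2 fold change of normalized count + 1, PKM2-/- minus PKM2fl/fl (horizontal axis), for the 10 genes at baseline (grey triangles, 2 against 2 hearts), sham (green circles) and MI (purple squares, 3 against 3 each), with 95% confidence intervals from limma. Mlxipl after MI, at -1.58, is the 1 filled symbol, meaning an adjusted p under 0.05, and Scd1 lies right of 0 at sham and MI.

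Between baseline and sham, 2 of the genes differed. In the mean of both genotypes, Scd1 rose by log2 0.53 ± 0.09 (adjusted p 0.0026 in limma) and Srebf1 fell by 0.47 on the log2 scale (SE 0.09, adjusted p 0.0068) relative to baseline, where 6.54% of all genes were called. Srebf1 had 780.2 and 1090.7 normalized counts at baseline against 608.6 to 688.8 in sham PKM2fl/fl hearts, and 853.1 and 881.5 against 575.5 to 688.2 in PKM2-/- hearts, so every sham heart lay below every baseline heart of its genotype, as happened in 1 direction or the other for 32.5% of all genes in PKM2fl/fl and 34.5% in PKM2-/- hearts. Both calls were lost with libraries scaled to their totals (adjusted p 0.21 and 0.73). Taken by genotype, Scd1 differed by 0.83 ± 0.12 in PKM2-/- (adjusted p 0.0025, where 5.14% of all genes were called) and 0.22 ± 0.12 in PKM2fl/fl hearts (adjusted p 0.68, where 0.19% were called). The difference between them was 0.60 ± 0.18, with an unadjusted p of 0.0038 and an adjusted p of 0.52. Scd4 had a wide fall in PKM2fl/fl hearts, from 297.5 and 414.7 at baseline to 85.8, 131.4 and 99.5 after sham. In the mean of both genotypes it was at -1.14 ± 0.37 and missed the threshold in limma (adjusted p 0.081). It was called by DESeq2 (0.0079) and edgeR (0.034), and in limma without the third PKM2fl/fl MI library (0.012). Thrsp, at log2 0.41, was called by neither DESeq2 nor edgeR. Its adjusted p in limma was 0.24 with the third PKM2fl/fl MI library and 0.028 without it. Fibroblast and leukocyte markers were also higher in sham than baseline hearts, 1.72-fold and 1.92-fold in PKM2fl/fl. Atrial markers were 7.37-fold higher in sham than baseline PKM2fl/fl hearts, at 313 to 1277 against 120 and 138 normalized counts, and 2.84-fold higher in PKM2-/- hearts (exact permutation p = 0.2 and 0.4). The part of these cells in the differences of Scd1, Srebf1, Scd4 and Thrsp was not tested. Elovl6 was at 0.41 ± 0.17 in the mean of both genotypes and was not called (adjusted p 0.18 in limma). Taken by genotype, it differed by 0.85 ± 0.24 in PKM2-/- hearts (adjusted p 0.053 in limma) and by -0.03 ± 0.24 in PKM2fl/fl hearts. The difference between genotypes in this change of Elovl6 was 0.88 ± 0.34 (unadjusted p 0.020, adjusted p 0.68 in limma).

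Across all 16 libraries, Acly, Acaca, Fasn, Scd2 and Elovl6 followed each other, with Pearson correlations of log2(normalized count + 1) of 0.87 to 0.96, and ran opposite to Thrsp (-0.87 to -0.96). These coefficients are descriptions across libraries that share the MI contrast. After subtracting the 6 group means, the coefficients among these enzymes ran from -0.15 for Acaca with Scd2 to 0.61 for Scd2 with Elovl6. Acly then ran opposite to Scd4 (-0.80) and Thrsp (-0.81). Srebf1 had coefficients of -0.26 to 0.30 with the 7 enzyme genes across the 16 libraries.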

How the data were processed

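Left ventricles of 16 mice were sequenced after removal of ribosomal RNA. The authors used PRINSEQ for trimming, HISAT2 for alignment to mm10, featureCounts for counting and DESeq2 for comparing groups (tools and build also per the submitters' processing notes); strand and multimapping settings and versions are not given in the sources used here. The deposited values are a normalized signal per gene and library, reads after division by a DESeq2 size factor. Of these values, 100% were whole multiples of 1 read to within 0.01, so reads were recovered by division. The same table holds the authors' mean, log2 fold change with its standard error, test statistic and p-values for their own comparison, which were not used. Groups came from the labels. Libraries held 20623769 to 71855101 reads, and 3 reads equal 1.47 to 5.50 normalized counts. Counts of 0 were kept as 0, and 1 was added to every value before the logarithm.

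The 10 genes and the lists were chosen with earlier results of these data known. Because the values are not raw counts, limma 3.58.1 (trend, R 4.3.3) was fitted to log2(normalized count + 1) over all 16 libraries with 6 group means, for 20576 genes with a mean of at least 10. Benjamini-Hochberg adjustment was over all genes tested, the threshold was 0.05, and tests were two-sided. Fold changes are on the log2(value + 1) scale. Comparisons of MI with sham share the sham libraries with the comparisons of genotype. Sums of markers were compared by exact permutation tests; 3 against 3 cannot go below 0.1 and 2 against 2 not below 0.33. DESeq2 1.42.0 and edgeR 4.0.16 on the recovered reads, 2 other scalings, other fits, filters and left-out libraries were alternatives. All 10 genes are named. Of each list, at most 3 called genes with the smallest p were named per comparison, or 2 where none was called. Acacb, Me1 and Idh1 were named in addition, as members that make malonyl-CoA or supply NADPH. The fit was tested on simulated data. Replicate numbers were not treated as pairs in the main fit, and the labels do not say whether they pair animals. The p-values measure the spread between these hearts, since the labels do not say whether they came from separate experiments. Values per 1000 counts of cardiomyocyte markers were added after the data were seen. Positions, promoters and motifs come from RefSeq on GRCm38.p6, which has the coordinates of mm10, and exon lengths from GENCODE M39 on GRCm39.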

Additional observations from a re-analysis of the deposited data

How the results depend on the processing

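Of the 22 fold changes called for the 10 genes, none changed sign in 25 alternatives, and 522 of 550 values kept their call. The 32 fold changes of MI against sham, or with an unadjusted p under 0.05 elsewhere, kept direction and call in 749 of 800 values. The other 48, all with an unadjusted p of 0.05 or more, changed sign in 86 of 1200. The 1 of the 32 that changed sign was Srebf1 after MI in PKM2fl/fl hearts, -0.050 with libraries scaled to their totals. Counts of called genes among the 10 that moved by over 1.5 times are as follows. For genotype at sham, array quality weights and DESeq2 called 1, and leaving out a library gave 0 to 1. For genotype at MI, the 6 MI libraries alone gave 0 and array weights and DESeq2 gave 2. For the mean of the 3 treatments, no filter, the replicate block and a 2-fold threshold gave 0, array weights and DESeq2 gave 2, and leaving out a library gave 0 to 2. The 2-fold threshold left 5 genes after MI in PKM2fl/fl and 5 in PKM2-/- hearts. DESeq2 called 1 gene for the interaction, and leaving out a library gave 0 to 1. For sham against baseline, the compared groups alone and array weights called 4, library totals and the 2-fold threshold 0, and leaving out a library gave 2 to 4. For genotype, the interaction and sham against baseline, each rise on leaving out 1 library came without the third PKM2fl/fl MI library; the causes were not tested. Over all genes, the genotype comparison at MI called 199 genes in limma, 1029 in DESeq2, 146 in edgeR and 2271 without that library. In the same order, the counts were 2, 266, 2 and 42 at sham, 2, 11, 1 and 2 at baseline, and 21, 306, 13 and 704 in the mean of the treatments. Higher genes were 40.7% of the calls at MI but 83.5% with library totals and 85.3% with totals without ribosomal RNA loci, and 69.1%, 94.9% and 83.1% for sham against baseline.

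Libraries with the same replicate number did not deviate together (median correlation -0.03, above 0.1 in 1 of 36 pairs). The labels do not say whether the numbers pair hearts, and correlations from 2 or 3 hearts a group cannot settle it. With the number as a replicate block, Mlxipl lost its call in the mean of the 3 treatments (adjusted p 0.064) and Scd4 gained one after MI in PKM2fl/fl hearts (adjusted p 0.027). With 2 or 3 hearts a group, changes well under 2-fold could be missed.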

Other observations

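The genes whose levels ran most nearly with some of the members over the 16 libraries are given as a description, since all share the MI contrast. For Scd2 they were C1qtnf6, Dscc1 and Csrp1 (Pearson correlation 0.989, 0.984 and 0.982). For Acly they were Prdx4, Tspan6 and Plagl1 (0.989, 0.986 and 0.985), and for Thrsp Gm32352, Aqp1 and Gzmm (0.989, 0.983 and 0.980). Srebf1 had no gene as close, with 0.810 for Cracr2a at the top.

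Within groups, after subtracting the 6 group means, Mlxipl ran nearest to Hcfc1r1, Proca1 and Vegfa (0.967, 0.957 and 0.955). Thrsp ran nearest to C1qtnf9, Mipepos and Kcnj5 (0.965, 0.953 and 0.951), Scd2 to Pclaf (0.968), which is known from dividing cells, and Scd4 to Scn4a (0.949). These rest on 16 libraries with few per group, and the highest coefficients among 20576 genes were picked.

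Scd3, the remaining mouse desaturase gene, stood between 8.6 and 23.3 normalized counts in the 16 libraries, below each of the other desaturase genes in every library. Thrsp divided by the cardiomyocyte markers was 1.40 times PKM2fl/fl in PKM2-/- sham hearts and 1.65 times after MI, without overlap in either (exact permutation p = 0.1, the smallest possible). Scd4 so divided was 2.28 times PKM2fl/fl after MI, also without overlap. The Thrsp counts themselves overlapped after MI (log2 0.15, adjusted p 0.80 in limma), where the marker sum was 0.632 of PKM2fl/fl in PKM2-/- hearts. The Scd4 counts overlapped after MI as well (log2 0.63, adjusted p 0.52 in limma). A lower marker sum raises the ratio of a gene whose counts are alike, so these ratios do not separate gene from markers. On plain counts, groups did not overlap for 16.5% of all genes at sham and 18.9% after MI. The share of all genes on the ratio was not computed. These ratios were computed after the values were seen.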
